A study of Mus musculus with 17 samples.

Results

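Long noncoding RNAs (lncRNAs) are transcripts, often spliced and polyadenylated, that are not known to encode a protein. The 103 described here were chosen by their raw counts, and are the genes annotated as lncRNA that lie on an autosome (chromosomes 1 to 19) and have at least 200 reads in every one of 17 mouse hearts, out of 10532 autosomal lncRNAs and 56748 genes in the count table. Their levels are therefore a description. The rule itself uses no group label, but the set was proposed with earlier results of these data known. The hearts came from mice aged 12 to 16 months, 8 controls (Ctrl) and 9 hMut mice, with 1 library of polyadenylated RNA per mouse. The hMut mice (Polg iMut/iMut; +/Ckmm-cre) carry an inducible allele of Polg, the catalytic subunit of the mtDNA polymerase, on both chromosomes, from which Cre recombinase removes a floxed wild-type cassette so that a proofreading-deficient POLG is made and mutations accumulate in mtDNA. Cre is driven here by the muscle creatine kinase (Ckmm) promoter, which is active in cardiomyocytes and skeletal muscle and not known to be active in the other cells of the heart. The controls are labelled Ctrl only, and no treatment is described. The allele was made in C57BL/6N embryonic stem cells. The paper mentions breeding to C57BL/6N mice in its account of the whole-body line, and gives no strain for the cross with Ckmm-cre mice. The comparison asks how the abundant noncoding transcripts of the heart differ between hMut and Ctrl mice.

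Some lncRNAs act in the nucleus, where they build nuclear bodies or hold chromatin regulators at a gene, and others act in the cytoplasm by binding proteins or microRNAs. For many, the act of transcription through a regulatory region matters more than the RNA itself, and some are host transcripts from which microRNAs or small nucleolar RNAs (snoRNAs) are cut. In the heart, several lncRNAs are transcribed beside genes of contraction and development, such as Mhrt at the myosin heavy chain locus and Hand2os1 at Hand2. Most of the 103 have no known function, and 17 were listed under an Ensembl identifier without a symbol.

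Of the 12 lncRNAs that differed between the groups (11.7% of the 103, where 4.62% of all genes tested differed), 7 had a promoter window in the RefSeq table (GRCm38.p6, 250 bases before to 50 bases after the annotated start). These starts are those of RefSeq. They were not compared with the starts of the gene models counted, and may differ from them. The windows of the first pair printed here, the lncRNA with the smallest adjusted p and the one with a known cardiac locus, held none of the motifs searched, and capitals mark the 50 bases after the start. AI506816 lies on the minus strand at chr5:23712618-23712917, and Hand2os1 on the minus strand at chr8:57320810-57321109.
AI506816: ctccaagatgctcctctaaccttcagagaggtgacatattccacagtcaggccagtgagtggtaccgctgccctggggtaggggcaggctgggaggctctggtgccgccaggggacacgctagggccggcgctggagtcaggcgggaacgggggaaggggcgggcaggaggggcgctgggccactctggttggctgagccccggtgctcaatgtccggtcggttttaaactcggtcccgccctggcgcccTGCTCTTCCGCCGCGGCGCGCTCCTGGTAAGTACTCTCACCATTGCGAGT
Hand2os1: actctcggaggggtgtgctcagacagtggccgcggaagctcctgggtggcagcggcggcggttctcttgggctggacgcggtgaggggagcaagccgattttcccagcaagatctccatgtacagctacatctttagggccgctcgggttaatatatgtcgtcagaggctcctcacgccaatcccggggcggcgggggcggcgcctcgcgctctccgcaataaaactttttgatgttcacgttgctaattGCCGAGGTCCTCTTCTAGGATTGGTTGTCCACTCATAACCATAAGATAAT
The second pair are the windows with a match, shown in capitals. That of 9330158H04Rik, on the minus strand at chr6:36388185-36388484, holds the core of the interferon-stimulated response element (GAAA, any 2 bases, GAAA) 102 bases before the start. That of 4930429F24Rik, on the plus strand at chr9:79793391-79793690, holds the motif of NRF1, a regulator of nuclear genes for mitochondria (GCGCA, any base, GCGC), and the match is its own reverse complement, 76 bases before the start.
9330158H04Rik: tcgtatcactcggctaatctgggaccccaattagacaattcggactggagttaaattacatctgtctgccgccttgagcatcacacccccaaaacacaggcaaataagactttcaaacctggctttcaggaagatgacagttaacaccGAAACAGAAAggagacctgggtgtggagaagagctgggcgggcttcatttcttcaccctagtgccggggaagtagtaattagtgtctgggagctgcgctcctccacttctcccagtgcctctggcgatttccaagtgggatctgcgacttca
4930429F24Rik: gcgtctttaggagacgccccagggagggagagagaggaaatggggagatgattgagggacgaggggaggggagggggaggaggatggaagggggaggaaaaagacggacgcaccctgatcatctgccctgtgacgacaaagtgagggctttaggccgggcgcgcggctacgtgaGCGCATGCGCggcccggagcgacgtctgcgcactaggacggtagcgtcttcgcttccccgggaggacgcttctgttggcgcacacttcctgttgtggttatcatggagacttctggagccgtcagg
The motifs were searched on both strands and do not overlap one another. The interferon-stimulated core was found in 3 of the 62 lncRNAs with a window (4.84%) and in 3.44% of all 32851 windows, and the NRF1 motif in 2 of 62 (3.23%) and in 4.60% of all windows. The third motif, the C/EBP-ATF composite element bound by ATF4 (TGATGNAA), was found in 2 of 62 (3.23%) and in 3.97% of all windows, and in none of the 7 windows of lncRNAs that differed. A match in a window is a description of its letters.

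A microRNA lies inside another of the 12, 2900076A07Rik, and is printed because the host fell in hMut hearts. RefSeq places mmu-miR-1839-5p on the plus strand at chr7:81529919-81529940 (GRCm38.p6), and capitals mark its seed, bases 2 to 8. Mature microRNAs are not captured in poly(A) libraries, the count table lists the gene Mir1839 with a mean of 0 reads, and only the host was measured.
mmu-miR-1839-5p: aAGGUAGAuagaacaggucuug

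The libraries held between 32915159 and 46486964 counts, and the 103 lncRNAs took 0.478% to 0.515% of them in Ctrl and 0.461% to 0.589% in hMut. Counts of mtDNA-encoded genes took 23.5% to 30.9% in Ctrl and 15.9% to 23.0% in hMut, and levels are given below as CPM, counts scaled to library sizes that were adjusted by the TMM method. The targeted gene Polg had 27.1 to 47.2 CPM in Ctrl and 47.1 to 65.1 CPM in hMut, and was higher in hMut by 0.74 ± 0.10 (log2, SE; adjusted p = 0.000448), but the counts do not separate its alleles. All 10 cardiomyocyte markers were detected in every heart, with Myh6 and the other markers summing to 47850 to 57200 CPM in Ctrl. Hearts are named by group and replicate number, which number different mice.

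Abundance among the 103 ranged widely and was carried by a few transcripts. Per kilobase of gene length, the mean level over the 17 hearts ran from 0.374 to 320 CPM per kb with a median of 5.35, and the 5 lncRNAs with most counts held 59.98% of all their counts. The highest was ENSMUSG00000120364, named Gm57414 in GENCODE release 39, an unspliced gene model of 3863 bases on chromosome 11 (chr11:31495794-31499656, GRCm39) with 320 CPM per kb. It had 1123, 1215 and 1433 CPM in Ctrl (lowest, median and highest) and 991, 1250 and 1468 CPM in hMut. These ranges overlap nearly whole, and its log2 difference of -0.02 ± 0.07 (SE) turned positive in some alternative fits.

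Behind it came Gm49708 (69.7 CPM per kb), Norad (59.7), Gm5532 (51.1), Oip5os1 (46.3), Malat1 (45.97), Gm44386 (35.9), ENSMUSG00000121092 (32.8), Gm15543 (31.2) and Neat1 (31.1 CPM per kb). Several of these have known roles. Norad is a cytoplasmic RNA that sequesters Pumilio proteins, Oip5os1 (Cyrano) triggers the decay of miR-7, Malat1 sits in nuclear speckles, and Neat1 is the scaffold of paraspeckles. Below the first, each lncRNA overlaps the next in this order over the range of the hearts, as the plot of levels per heart shows.

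**Figure D1:**
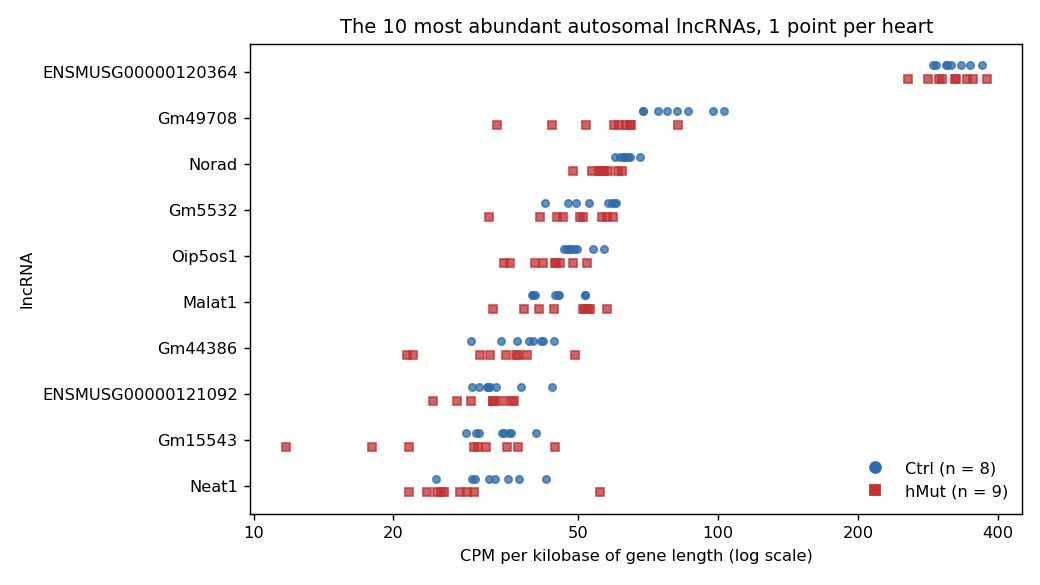
Levels of the 10 lncRNAs with the highest mean CPM per kilobase, on a logarithmic axis, with 1 circle per Ctrl heart (n = 8) and 1 square per hMut heart (n = 9). ENSMUSG00000120364 stands apart from the rest at a mean of 320 CPM per kb, and the hearts of both groups overlap for every lncRNA shown.

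Of the 103 lncRNAs, 2 were higher and 10 were lower in hMut hearts (edgeR quasi-likelihood test with Benjamini-Hochberg adjustment over all 16195 genes tested, adjusted p under 0.05). That is 11.7% called (1.94% higher and 9.71% lower), beside 4.62% of all genes tested (3.48% higher and 1.14% lower). Among the 1314 other autosomal lncRNAs tested, which have fewer reads, 12 were higher (0.913%) and 18 lower (1.37%). Autosomal protein-coding genes held to the same minimum of 200 reads gave 379 higher (4.29%) and 102 lower (1.15%) of 8839. For none of the 103 did the 9 hMut hearts all lie above or all below the 8 Ctrl hearts, which over all genes happened for 0.543% above and 0.0617% below.

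The lower side was not limited to the genes called. The log2 difference (hMut minus Ctrl) was below 0 for 77 of the 103 lncRNAs (74.8%), with a median of -0.14 and a range from -0.82 to 0.67. Over all genes tested it was below 0 for 49.5%, with a median of 0.00, and for the protein-coding genes with at least 200 reads 49.6% were below 0. The less abundant autosomal lncRNAs leaned the same way, 66.1% below 0 with a median of -0.12. The genes share libraries and scaling, and these counts are a description with no test of the set. In whole-heart RNA fewer cells of a type and less RNA per cell cannot be told apart.

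**Figure D2:**
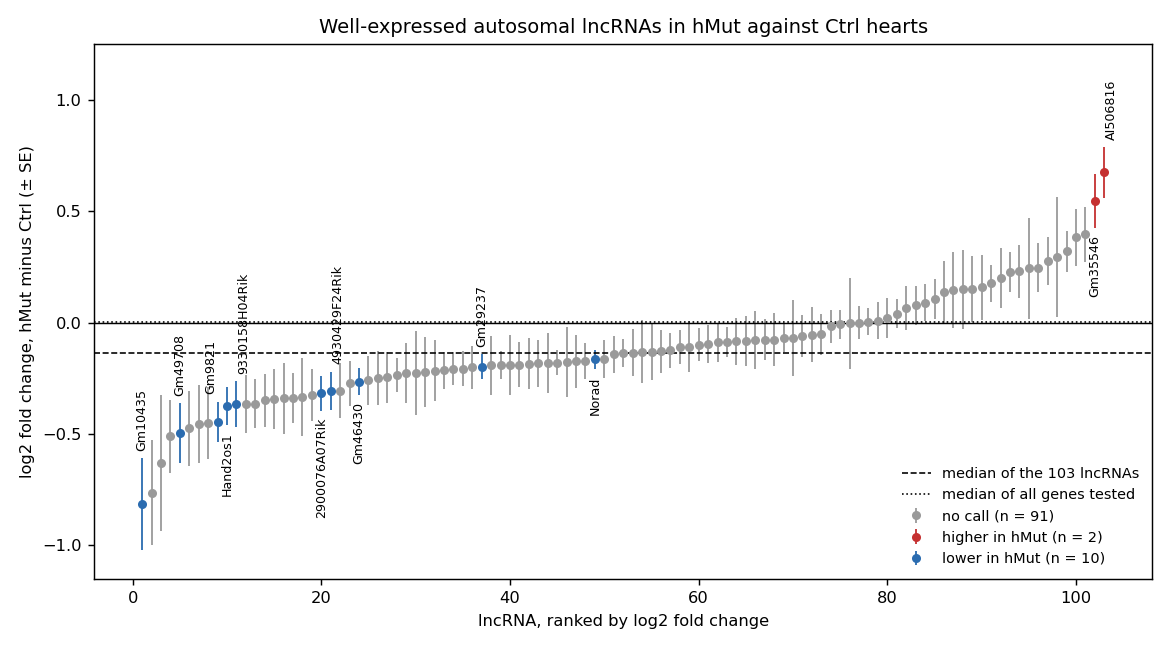
Log2 fold change (hMut minus Ctrl, bars ± SE) of the 103 lncRNAs in rank order, with those called higher in red and those called lower in blue. The dashed line is their median (-0.14) and the dotted line the median of all genes tested (0.00), and 77 of the 103 points lie below 0.

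The counts depend on single hearts. The 10 lower calls became 24 without hMut replicate 2 (4.12% of all genes lower), and between 3 and 5 (0.428% to 0.925% of all genes) without any one of Ctrl replicates 1, 2, 3, 5, 6, 7 and 8 or hMut replicates 3, 4, 5, 7 and 9. The 2 higher calls became 5 without hMut replicate 1, 6 without hMut replicate 2 and 3 without hMut replicate 3. DESeq2 called all 12 and 11 more, 5 higher and 18 lower in all, and it also called more of all genes tested, 6.21% higher and 3.12% lower. For limma-voom with quality weights these shares were 7.26% and 5.59%, beside 5 higher and 26 lower of the 103. Across 27 alternative fits, AI506816 and Gm9821 were called in each one, Gm35546, Gm46430 and Hand2os1 in all but the fit with the replicate number as a block, and the other 7 in 10 to 18 of the fits. With each of the 17 hearts left out in turn, 2900076A07Rik was called in 11, Gm10435 in 7, 9330158H04Rik and 4930429F24Rik in 5, and Norad, Gm49708 and Gm29237 in 4. The direction of the 12 was the same in all 27.

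The strongest rise was that of AI506816 (chr5:23903294-23917684, GRCm39), a lncRNA gene that holds a snoRNA gene, Gm50451, in its transcribed region. It had 16.3, 17.9 and 19.3 CPM in Ctrl and 17.4, 27.0 and 38.9 CPM in hMut (lowest, median and highest). The Ctrl hearts lay close together, 8 of 9 hMut hearts were above all of them, and hMut replicate 2 alone fell among them. The rise was 1.60-fold (log2 0.67 ± 0.11 SE, adjusted p = 0.00197), and 0.54 on the log2 scale without hMut replicates 6 and 9 (adjusted p = 0.00178). Here and below, these hearts were left out together because their immune genes were high, a choice made from these same data.

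Gm35546 (chr1:186319522-186393410) also rose. Its levels were 9.84, 12.5 and 15.6 CPM in Ctrl and 12.5, 18.02 and 22.9 CPM in hMut, with 7 of 9 hMut hearts above every Ctrl heart. The difference was 0.54 ± 0.12 (log2, SE; adjusted p = 0.0165). It runs antisense through Tgfb2, which encodes a ligand of the transforming growth factor beta family, over 38422 bases but shares 0 exon bases with it in GENCODE release 39. Tgfb2 rose by 0.92 ± 0.23 (log2, SE; adjusted p = 0.0303), from a mean of 15.6 to 29.5 CPM, a call that was lost without any one of Ctrl replicates 1, 5, 6 and 7 or hMut replicates 5, 7 and 9 (adjusted p from 0.0517 to 0.0584).

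Among the 10 that fell, Hand2os1 (Upperhand; chr8:57734152-57777268) has the best known place in the heart. It is transcribed in the direction opposite to Hand2, a transcription factor gene of heart development, and through an enhancer of Hand2. In the gene model counted here, Hand2os1 starts inside Hand2, 3250 bases from the start of Hand2, and runs antisense across that start. Its levels were 45.98, 50.5 and 56.4 CPM in Ctrl and 28.6, 38.6 and 48.3 CPM in hMut. Below every Ctrl heart lay 7 of 9 hMut hearts, and the log2 difference was -0.38 ± 0.09 (SE, adjusted p = 0.0175), or -0.32 without hMut replicates 6 and 9 (adjusted p = 0.0249). Hand2 itself had a log2 difference of -0.19 ± 0.10 (SE, adjusted p = 0.229), with means of 33.1 CPM in Ctrl and 28.9 CPM in hMut. Hand2 and Hand2os1 overlap over 3251 bases, of which 468 are exonic in both.

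Norad (chr2:156229980-156234921) overlaps no other gene and was measured with at least 9761 reads in every heart. Its fall was small and narrow, from 297, 310 and 335 CPM in Ctrl to 241, 279 and 307 CPM in hMut. In all, 7 of 9 hMut hearts were below every Ctrl heart, and the log2 difference was -0.17 ± 0.04 (SE, adjusted p = 0.0404). Leaving out both hMut replicates 6 and 9 moved it to -0.13 (adjusted p = 0.0759).

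Gm9821 (chr2:91776048-91779033), the lncRNA lower in every alternative fit, had 8.13, 9.60 and 11.2 CPM in Ctrl and 5.58, 7.16 and 9.26 CPM in hMut. Only hMut replicate 1 reached the Ctrl range, and the log2 difference was -0.44 ± 0.09 (SE, adjusted p = 0.00887). It lies whole within Dgkz, a diacylglycerol kinase gene on the other strand, with a log2 difference of -0.07 ± 0.05 (SE, adjusted p = 0.391).

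Gm10435 showed the lowest log2 difference, -0.82 ± 0.21 (SE, adjusted p = 0.0332), and a wide spread. Ctrl hearts had 20.3, 32.3 and 40.9 CPM and hMut hearts 8.48, 15.9 and 29.5 CPM, and 3 of the 9 hMut hearts lay inside the Ctrl range.

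Gm49708 (chr16:90138483-90146530) had the highest level per kb of those that fell (69.7 CPM per kb). It had 134, 154 and 199 CPM in Ctrl and 64.5, 118 and 158 CPM in hMut, and only hMut replicate 2 lay inside the Ctrl range. The log2 difference was -0.50 ± 0.14 (SE, adjusted p = 0.0440). A smaller fall was that of 9330158H04Rik (chr6:36186555-36367126), with 13.6, 15.04 and 18.3 CPM in Ctrl and 7.94, 12.9 and 14.9 CPM in hMut and a log2 difference of -0.37 ± 0.10 (SE, adjusted p = 0.0479). It starts inside Chrm2, the muscarinic acetylcholine receptor gene of the heart, in the opposite direction, and shares 1121 exon bases with it. Chrm2 had a log2 difference of -0.35 ± 0.12 (SE, adjusted p = 0.100), with means of 173 CPM in Ctrl and 136 CPM in hMut.

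The other 4 had log2 differences between -0.32 and -0.20. 2900076A07Rik (chr7:81173264-81181254), the host of miR-1839, had 17.5, 22.2 and 25.1 CPM in Ctrl and 13.5, 17.4 and 20.6 CPM in hMut (log2 difference -0.32 ± 0.08 SE, adjusted p = 0.0280). 4930429F24Rik (chr9:79700881-79710517) had 11.2, 13.3 and 16.4 CPM in Ctrl and 8.50, 10.9 and 13.4 CPM in hMut (-0.31 ± 0.09 SE, adjusted p = 0.0481). Its start lies 92 bases from that of Tmem30a, a phospholipid flippase subunit transcribed the other way, which had 146 and 143 CPM on average (log2 difference -0.02 ± 0.03 SE). Gm46430 (chr13:74727467-74766064) had 11.5, 12.7 and 13.3 CPM in Ctrl and 9.03, 10.5 and 11.8 CPM in hMut, with 7 hMut hearts below every Ctrl heart (-0.27 ± 0.06 SE, adjusted p = 0.0170). Gm29237, antisense to the spectrin gene Sptbn1, had 10.03, 11.02 and 12.7 CPM in Ctrl and 8.77, 10.04 and 10.5 CPM in hMut (-0.20 ± 0.06 SE, adjusted p = 0.0479), and 5 of the 9 hMut hearts lay within the Ctrl range.

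**Figure D3:**
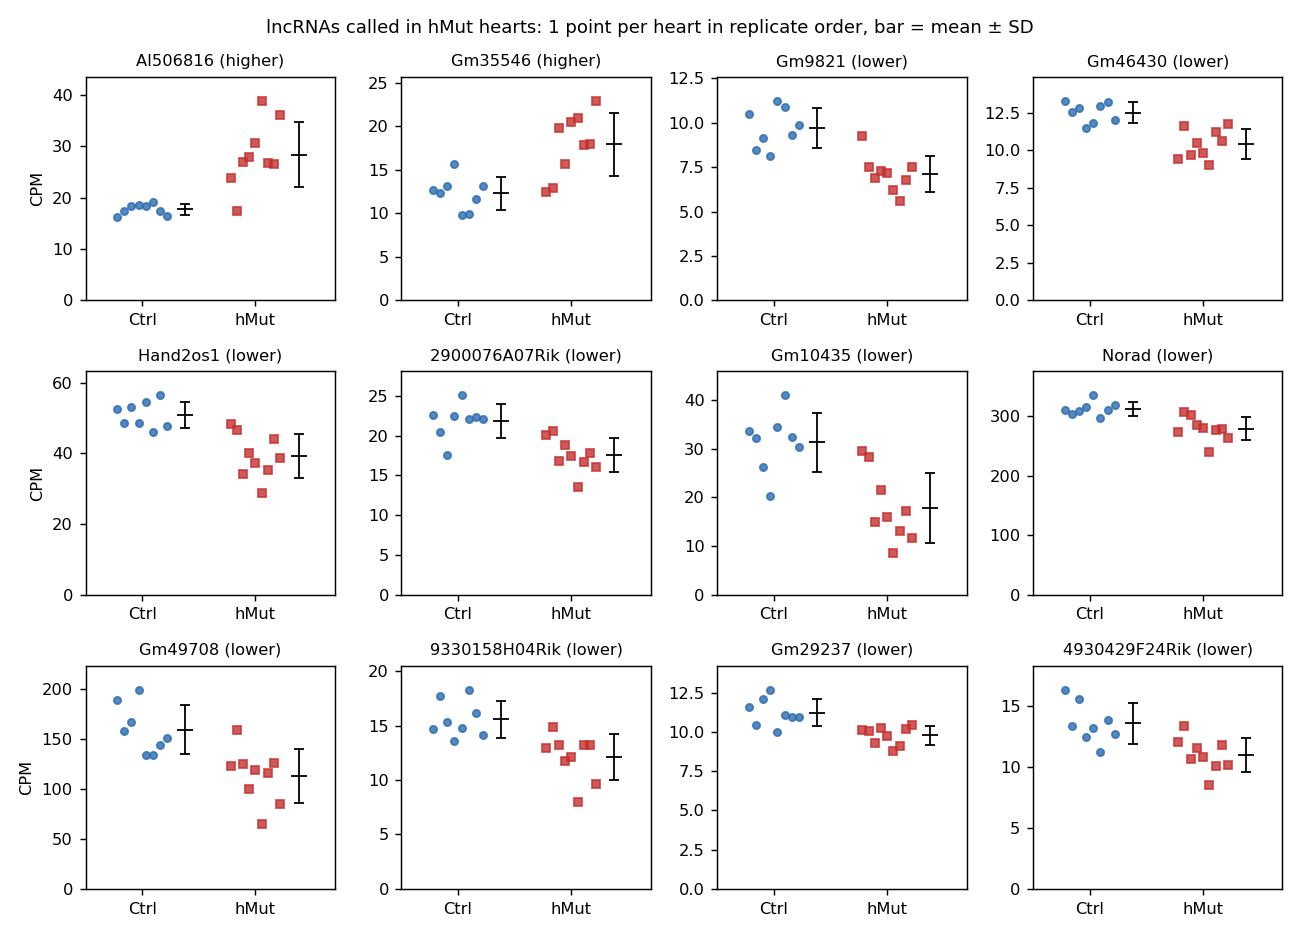
CPM of the 12 lncRNAs called, with 1 circle per Ctrl heart and 1 square per hMut heart in replicate order, and the mean ± SD beside them, on axes that start at 0. In every panel at least 1 hMut heart lies in the Ctrl range.

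Because it is not stated whether reads were counted by strand, reads of a lncRNA and of a gene on the other strand cannot be told apart where their exons overlap. Of the 103 lncRNAs 62 overlap another gene, and 10 of these were called (16.1%, 2 higher and 8 lower), while of the 41 that overlap none 2 were called (4.88%, both lower). The log2 difference was below 0 for 46 of the 62 (74.2%, median -0.17) and for 31 of the 41 (75.6%, median -0.13). An overlap on either strand or a divergent start joins 54 of the lncRNAs to 60 tested protein-coding genes. The lncRNA and its neighbour were both below 0 in 32 of these pairs and both above in 8, the lncRNA alone was below in 14 and the neighbour alone in 6.

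Of the 60 neighbours 4 were called (6.67%, near the 4.62% of all genes tested), 2 higher and 2 lower. They are given as single genes and, apart from Tgfb2, were picked out after their values were seen. Nmrk2, a nicotinamide riboside kinase gene, rose by 2.09 ± 0.41 (log2, SE; adjusted p = 0.00646) and Atcay, the caytaxin gene, had -0.95 ± 0.21 (SE, adjusted p = 0.0137). Both overlap Atcayos on the other strand, which had 53.4, 67.4 and 71.5 CPM in Ctrl and 29.9, 51.3 and 72.8 CPM in hMut and a log2 difference of -0.34 ± 0.14 (SE, adjusted p = 0.130). The log2 differences of the lncRNA and of the neighbours it shares exons with thus pointed both ways at this locus. Cdc14b, a phosphatase gene, had -0.26 ± 0.06 (SE, adjusted p = 0.0185) beside -0.14 ± 0.08 (SE, adjusted p = 0.280) for its antisense 1810034E14Rik.

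Mhrt, an antisense transcript of the myosin heavy chain locus that binds the chromatin remodeller Brg1, shares 2462 exon bases with Myh7, the slow myosin heavy chain gene, and starts 1720 bases from the divergent Myh6, the main adult form. Ctrl hearts had 29.5, 44.6 and 58.8 CPM of Mhrt and hMut hearts 17.98, 30.5 and 48.5 CPM. Its log2 difference of -0.47 ± 0.17 (SE, adjusted p = 0.102) did not pass. Myh6 had -0.34 ± 0.10 (SE, adjusted p = 0.0601), from a mean of 14920 to 11810 CPM, and Myh7 had 0.57 ± 0.34 (SE, adjusted p = 0.284), from 401 ± 103 to 598 ± 495 CPM (SD).

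**Figure D4:**
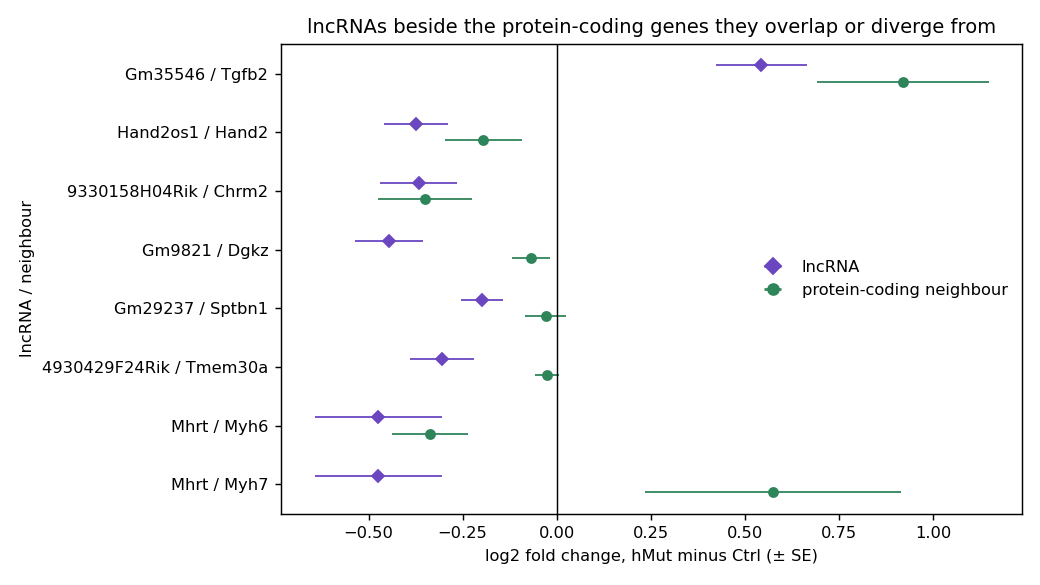
Log2 fold change (hMut minus Ctrl, bars ± SE) of 7 lncRNAs (diamonds) and of the protein-coding genes that overlap them or start beside them (circles). Gm9821, Gm29237 and 4930429F24Rik lie farther from 0 than their neighbours, and Mhrt and Myh7 lie on opposite sides of 0.

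The lists of lncRNAs described next were drawn up with earlier results of these data known, so their counts are no independent evidence of a direction. The list of cardiac and muscle lncRNAs, Mhrt included, gave 1 call, Hand2os1, among 9 tested, with a median of -0.29 and 7 of 9 below 0. DESeq2 called 2 lower and limma-voom 3 lower. These counts are to be read beside the shares over all genes tested given above for each tool. Chaer1, a lncRNA that binds the Polycomb complex PRC2 in cardiac hypertrophy, had 21.5, 24.4 and 36.2 CPM in Ctrl and 5.64, 17.9 and 28.4 CPM in hMut. In 8 of 9 hMut hearts it lay below every Ctrl heart, yet its log2 difference of -0.76 ± 0.23 (SE, adjusted p = 0.0665) did not pass. Without hMut replicates 6 and 9, the lowest hMut hearts for Chaer1 (5.64 and 7.26 CPM), it was -0.53 (adjusted p = 0.0463). Because these hearts were chosen from the same data, that p-value is a description. H19, the imprinted host of miR-675, had 9.04, 14.7 and 18.7 CPM in Ctrl and 7.72, 12.8 and 26.7 CPM in hMut, so that hMut hearts lay on both sides of the Ctrl range, with a log2 difference of -0.00 ± 0.20 (SE).

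The list of nuclear body and abundant nuclear lncRNAs also holds Norad, which acts in the cytoplasm and was the single call among 7 tested. Without Norad edgeR called 0 of 6, as did DESeq2 and limma-voom. In edgeR 1 of the 6, Oip5os1, was lower at an unadjusted p under 0.05, and 5 of 6 were below 0 (median -0.09). Where these RNAs lie in the cell was not measured. Malat1 had 278, 314 and 361 CPM in Ctrl and 229, 358 and 404 CPM in hMut, and the log2 difference was 0.07 ± 0.10 (SE, adjusted p = 0.687). For Neat1 the levels were 522, 691 and 901 CPM in Ctrl and 458, 544 and 1181 CPM in hMut, with -0.18 ± 0.16 (SE, adjusted p = 0.484). A single heart, hMut replicate 9, holds the highest of these values, and the difference was -0.35 without it. With any one heart other than hMut replicate 9 left out it stayed at -0.23 to -0.12. Without hMut replicates 6 and 9, the highest hMut hearts for Neat1 and chosen from these same data, the difference was -0.38 (adjusted p = 0.0318). Oip5os1 had 500, 521 and 610 CPM in Ctrl and 372, 478 and 560 CPM in hMut, where 7 of 9 hMut hearts lay below every Ctrl heart and the log2 difference was -0.21 ± 0.07 (SE, adjusted p = 0.102).

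The imprinted lncRNAs, which are transcribed from the maternal or the paternal chromosome alone, were below 0 in 8 of 8 tested (median -0.15). Of these H19 was at -0.0028, with a sign that turned in some alternative fits. The single gene called lower was Snhg14 (log2 difference -0.64, adjusted p = 0.0391), which is not among the 103. DESeq2 and limma-voom each called 2 lower, again to be read beside the shares over all genes tested given above for each tool. Meg3, expressed from the maternal chromosome, had -0.35 ± 0.12 (SE, adjusted p = 0.0915), with 9.47 CPM in the median Ctrl heart and 6.87 CPM in the median hMut heart. Peg13 had -0.16 ± 0.09 (SE, adjusted p = 0.229) and lies within Trappc9 on the same strand, so its reads are uncertain. For Airn, which silences Igf2r in cis, the log2 difference was -0.10 ± 0.07 (SE, adjusted p = 0.397).

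Of 17 snoRNA host genes tested, 0 were higher and 2 lower (Snhg14 and Snhg20, at -0.32), while 13 were above 0 with a median of 0.21. At an unadjusted p under 0.05 5 were higher and 2 lower, beside 14.5% higher and 11.3% lower of all genes tested. DESeq2 called 2 higher and 2 lower, and limma-voom 1 higher and 2 lower. The list's gene among the 103 is Gas5, a host of snoRNAs whose RNA also binds the glucocorticoid receptor. It had 14.5, 17.98 and 22.2 CPM in Ctrl and 16.5, 23.2 and 34.3 CPM in hMut. In 6 of 9 hMut hearts it lay above every Ctrl heart, and its log2 difference of 0.38 ± 0.13 (SE, adjusted p = 0.0889) did not pass.

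Of the 14 microRNA hosts tested edgeR called 0, and 11 were below 0 (median -0.14). At an unadjusted p under 0.05 2 were higher and 3 lower, DESeq2 called 1 in each direction, and limma-voom 1 higher and 2 lower, to be read beside the same shares over all genes tested. Mir99ahg, which hosts miR-99a, let-7c and miR-125b, had a log2 difference of 0.23 ± 0.09 (SE, adjusted p = 0.126) with 6 of 9 hMut hearts above every Ctrl heart. Mir22hg, the host of miR-22, had -0.08 ± 0.13 (SE, adjusted p = 0.728), and -0.175 without Ctrl replicate 4, its lowest Ctrl heart. The p53 and stress linked list held 10 tested genes, 1 higher (Pvt1, log2 0.92, adjusted p = 0.0431, not among the 103) and 1 lower (Norad), with a median of 0.12. DESeq2 and limma-voom each called 2 higher and 2 lower in this list, with the same shares over all genes tested to be read beside them. In the same hearts all 15 of the mitochondrial stress genes listed, among them Gdf15, Fgf21 and Atf4, were higher, with a median log2 difference of 2.52. Of all genes tested 3.48% were higher. This list too was drawn up with earlier results of these data known, so its count is no independent evidence.

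The lncRNAs did not move alike in all hMut hearts. Measured per heart as the median over the 103 of log2 CPM minus the Ctrl mean, Ctrl hearts lay between -0.03 and 0.04, and hMut hearts between -0.46 and 0.04. In hMut replicate 6 the median was -0.46, 69 of the 103 lay below every Ctrl heart, and 54 had their lowest level of all 17 hearts. Next was hMut replicate 9 with a median of -0.28 and 56 below every Ctrl heart. At the other end stood hMut replicate 2 with a median of 0.04, 3 below every Ctrl heart, and the highest level of all hearts for 17 of the lncRNAs.

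Spread was also larger in hMut hearts. The SD of log2 CPM had a median over the 103 of 0.269 in hMut and 0.167 in Ctrl, was larger in hMut for 89 of them, and was 0.177 in hMut without replicates 6 and 9 (larger than in Ctrl for 59). Without these 2 hearts the 103 lncRNAs held 2 higher and 7 lower, 6 of them among the original 12, against 0.712% lower over all genes tested, and the median log2 difference was -0.09 with 75 below 0. The largest spreads were those of ENSMUSG00000120208 (Gm36703), with 36.8 to 49.9 CPM in Ctrl and 5.38 to 48.4 CPM in hMut, Chaer1, ENSMUSG00000121069 (Gm56730), Gm10435 and H19. Of ENSMUSG00000121069 hMut replicate 9 had 76.8 CPM while the median hMut heart had 20.02 CPM, and its log2 difference of 0.29 ± 0.27 (SE) was -0.09 without that heart.

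**Figure D5:**
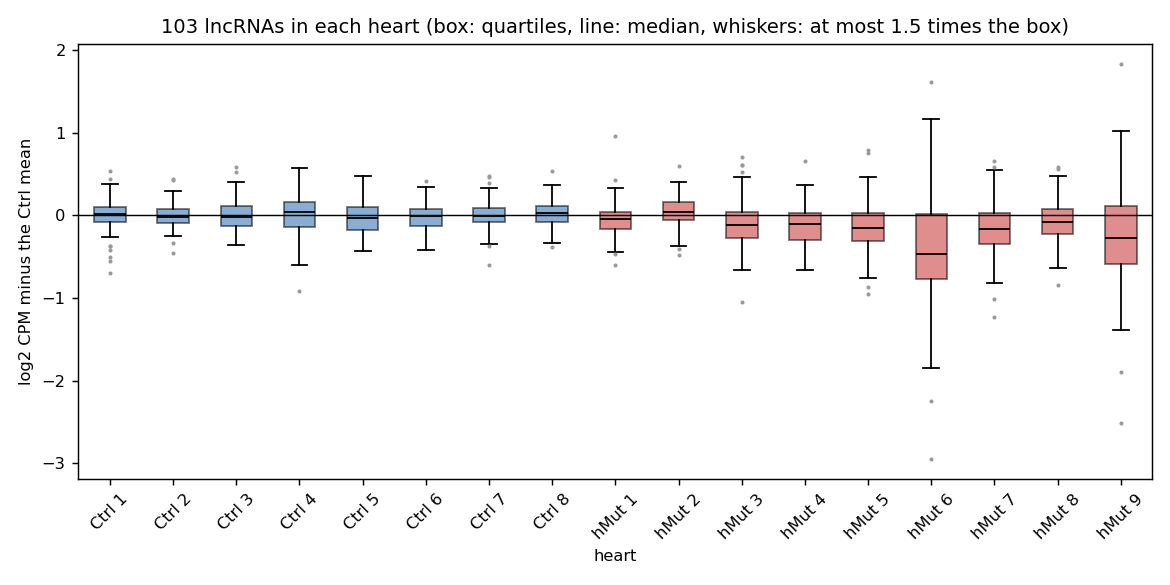
Log2 CPM minus the Ctrl mean for the 103 lncRNAs in each heart (Ctrl blue, hMut red), with the box at the quartiles, the line at the median, whiskers up to 1.5 times the box and points beyond. Medians lie near 0 in the Ctrl hearts and in hMut replicate 2, and lowest in hMut replicates 6 (-0.46) and 9 (-0.28).

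Markers of heart cell types also varied across these hearts. The counts of called markers below are to be read beside the shares over all genes tested given above for each tool. The 10 cardiomyocyte markers were all below 0 (median log2 difference -0.24), of which edgeR called 0, 7 were lower at an unadjusted p under 0.05, DESeq2 called 4 and limma-voom 5 lower, and they summed to 36120 to 55870 CPM in hMut, with 38840 CPM in replicate 6, 36120 CPM in replicate 9 and 55870 CPM in replicate 2. The 8 myeloid markers (median 0.59, edgeR 0 called, 6 higher at an unadjusted p under 0.05, DESeq2 and limma-voom 1 each) summed to 222 to 336 CPM in Ctrl and 281 to 1196 CPM in hMut, with 1196 CPM in replicate 6 and 613 CPM in replicate 9. The 8 fibroblast markers (median 0.37, edgeR 0 called, 7 higher at an unadjusted p under 0.05, DESeq2 and limma-voom 2 each) summed to 902 to 1064 CPM in Ctrl and 894 to 2063 CPM in hMut, with 2063 CPM in replicate 6 and 1585 CPM in replicate 9. Lymphoid markers (10 tested, 0 called by any of these tools, 4 higher at an unadjusted p under 0.05) reached 147 CPM in hMut replicate 6 and at most 77.0 CPM in Ctrl, and none of these lists had a marker at 0 in any heart.

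A call was made in the atrial and in the endothelial list. Of 5 atrial cardiomyocyte markers 3 were tested and all were above 0 (median 1.16), and Bmp10 was higher by 5.58 on the log2 scale (adjusted p = 3.25e-05), from as few as 3 reads in a heart. The 3 summed to 38.5 to 166 CPM in Ctrl and 78.2 to 702 CPM in hMut. The hMut sums were 702 CPM in replicate 6, 449.6 CPM in replicate 9 and 78.2 CPM in replicate 2. Most reads of this sum were those of Nppa (1443 to 28912 reads per heart, log2 1.16, adjusted p = 0.101). The paper counts Nppa among cardiac stress markers. Myl4 had 38 to 94 reads (log2 0.14, adjusted p = 0.6345), and Bmp10 at most 1116. The untested Sln and Myl7 were at 0 in 9 and 2 of the hearts and had at most 11 and 19 reads. The 7 endothelial markers (median 0.14, 6 above 0) held 1 call, Kdr, a receptor of vascular endothelial growth factor (log2 0.39, adjusted p = 0.0407), with 3 higher by limma-voom, and summed to 769 to 981 CPM in Ctrl and 857 to 1157 CPM in hMut (867 CPM in replicate 6). The 6 smooth muscle and pericyte markers were all above 0 (median 0.17, edgeR and DESeq2 0 called, limma-voom 1 higher, 4 higher at an unadjusted p under 0.05) and summed to 741 to 1012 CPM in Ctrl and 685 to 1089 CPM in hMut, lowest in replicate 6. The part of cell makeup in the lncRNA differences was not tested.

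The minimum of 200 reads that chose the 103 fell in a dense range. Just inside were ENSMUSG00000121093 (lowest heart 200 reads, log2 difference 0.16), 3222401L13Rik (201 reads, -0.21) and Meg3 (202 reads, -0.35). Just outside were Gm13375 (199 reads, -0.28), Prdm16os (195 reads, -0.45) and Cep83os (195 reads, -0.27).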

How the data were processed

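Poly(A) libraries of whole hearts were trimmed by the authors with fastp, mapped with HISAT2 2.2.1 (build GRCm39) and summarised by gene with featureCounts 2.0.6, per the submitters' processing notes and the study's methods. What they deposited are raw counts without scaling. Strand use in counting is not given in the sources used here.

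Counts of all 17 libraries (32915159 to 46486964 per library) were fitted in edgeR 4.0.16 (R 4.3.3) with TMM scaling, filterByExpr and the quasi-likelihood F test, hMut against Ctrl, and p-values were adjusted over 16195 genes (Benjamini-Hochberg, threshold 0.05). The SE is the size of the log2 difference over the root of F. The fit was tested on simulated data. CPM use TMM-scaled library sizes, and log2 CPM a prior count of 2. Replicate numbers name different mice. Sex, read from the data, entered 1 alternative fit. Coordinates are those of the count table (GRCm39), overlaps of exons come from GENCODE release 39 (102 of 103 identifiers matched), and promoter and microRNA sequences from RefSeq (GRCm38.p6, 62 of 103 lncRNAs matched). Neighbouring starts were searched within 5000 bases.

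The lncRNAs, the lists and the motifs were chosen with earlier results of these data known. Text names the lncRNAs called, the 10 highest per kb, the 5 with the largest spread, those in the 6 lncRNA lists, partners of called lncRNAs, and 3 on each side of the minimum. A partner that this rule would name is not reported here. Alternatives were DESeq2 1.42.0, limma-voom (limma 3.58.1), other scalings, filters and minimum reads, covariates, and each heart left out. A further fit left out hMut replicates 6 and 9 together, chosen from these same data as hMut hearts high in immune genes. p-values measure the spread between mice, 1 library each.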

Additional observations from a re-analysis of the deposited data

Results flagged for a closer look

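The 33 named lncRNAs among the 103, each in Ctrl and in hMut, gave 66 groups. A heart that stood apart from the rest of its group by Dixon's criterion was found in 3 (4.55%), where chance gives about 5%. Neighbouring genes were not screened in this way. Neat1 had 1181 CPM in hMut replicate 9, above the other 8 hMut hearts. ENSMUSG00000121069 had 76.8 CPM in the same heart. Mir22hg had 7.08 CPM in Ctrl replicate 4, below the other 7 Ctrl hearts.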

How the results depend on the processing

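The counts of lncRNAs called (2 higher, 10 lower) were 5 and 18 with DESeq2, 5 and 26 with limma-voom and quality weights, 2 and 4 without a filter on low counts, 2 and 6 with sex as a covariate, and 1 and 1 with the replicate number as a block, which leaves out hMut replicate 9 and whose numbers pair no animals (deviations of same-numbered hearts correlated between -0.23 and 0.34). Over all genes tested the share called was 4.62% in the main analysis, 9.33% with DESeq2, 12.85% with limma-voom, 1.30% without the filter, 3.47% with sex and 1.15% with the block. Leaving out each heart gave 2 to 6 higher and 3 to 24 lower, with a median log2 difference from -0.17 to -0.11. RLE and upper-quartile scaling, a mean of at least 50 counts and the fit without mtDNA-encoded genes gave 2 and 10. A mean of at least 200 counts as the rule gave 5 higher and 15 lower of 169 lncRNAs, a minimum of 500 counts 1 and 4 of 37, and lncRNAs that overlap no other gene 0 and 2 of 41. Causes of these differences were not tested.

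Signs turned for 5 genes, none of them called. The log2 fold change of ENSMUSG00000120364 (-0.02) was 0.0066 without hMut replicates 6 and 9, 0.0069 with limma-voom, and -0.053 to 0.0172 with single hearts left out. That of ENSMUSG00000121069 (0.29) was -0.1373 without hMut replicates 6 and 9, -0.0098 with limma-voom, -0.0744 with the replicate block, -0.0885 without hMut replicate 9 and up to 0.381 without another heart. That of H19 (-0.0028) was 0.0749 without hMut replicates 6 and 9, 0.0449 with limma-voom, 0.0087 with sex as a covariate, and -0.1751 to 0.0772 with single hearts left out. ENSMUSG00000121093 gave -0.0417 without hMut replicates 6 and 9, and Sptbn1 0.0066 with limma-voom. Of 1188 settings of 44 named genes, 1026 kept direction and side of the threshold, 114 lost a call and 23 gained one. With 8 and 9 hearts, and as few as 200 reads in a heart, differences near their SE were not detectable at this depth.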
